A study of Mus musculus with 5 samples.

Results

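The apoptosis, TNF and autophagy genes described here are 80 of the 8798 genes measured in RNA of adult mouse retina set against RNA of newborn mouse cortex. They were chosen by symbol: every probe annotated with a single gene symbol that begins with Bcl2, Casp, Birc, Tnf, Traf, Ripk, Pdcd, Cide, Atg, Becn, Ulk, Sqstm, Gabarap, Map1lc3 or Trp53, or names Bax, Bak1, Bad, Bid, Xiap, Apaf1, Diablo, Fas, Fasl or Fadd, was taken, which gave 104 of the 21446 probes. No measured value entered that choice. The retina was that of adult C57/B6 mice and the cortex that of Swiss-Webster mice on postnatal day 1. Each tissue gave 1 pool of total RNA, and the same pair of pools was hybridised to 5 two-colour Agilent arrays, with retina in Cy5 and the cortex reference in Cy3 each time. No genetic change or treatment is recorded in the labels for either pool, and the labels give neither the number of animals pooled nor their sex. Tissue, age, strain and dye change together between the pools and cannot be told apart.

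Each value is a log2 ratio with retina above and cortex below the line, so 0 is equal RNA, 1 is 2-fold more in retina and -1 is 2-fold more in cortex. They are given array by array or as mean ± SD over n = 5 arrays. The log base of the deposited values and the direction are only likely, since no label states them. With the direction turned, every sign below would turn. Under the direction taken, the 4 measured photoreceptor markers read from 2.97 to 4.30, on the retina side. The 10 measured immature neuron markers read from -3.99 to -0.88, on the cortex side. The arrays are technical repeats, so the p-values compare the 2 pools and measure the spread between arrays, with no measure of the spread between animals. The words higher and lower in retina are kept for genes that passed limma's test against a minimum of 2-fold, with Benjamini-Hochberg adjustment over all 8798 genes at a threshold of 0.05. A second limma test, against a ratio of 0, picks up ratios far smaller than 2-fold. A ratio gives no level, so the genes cannot be ranked by how strongly they are expressed, and in whole tissue fewer cells of a type and less RNA per cell cannot be told apart.

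Apoptosis removes cells through caspases, proteases that are switched on from outside by death receptors of the TNF receptor family or from inside by release of cytochrome c from mitochondria, which the Bcl2 proteins gate. TNF receptors also signal through TRAF adaptors to the transcription factor NF-kappaB, whose targets include survival genes. Autophagy encloses cytoplasm in membranes studded with proteins of the LC3 and GABARAP families and delivers it to lysosomes. Newborn cortex is known for the removal of surplus neurons by apoptosis, and adult retina for long-lived photoreceptors that renew their outer segments and depend on autophagy.

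Of the 80 genes, 4 were higher in retina and 3 were lower, and 73 did not pass the 2-fold test. The 7 calls are 8.75% of the set, against 6.63% of all genes, and the shares by direction over all genes were 2.80% higher and 3.83% lower. The share of the set is thus near the background of these pools. The genes higher in retina were Traf3ip3, Tnfaip3, Gabarapl1 and Xiap, and those lower were Traf4, Tnfrsf19 and Birc5. The median log2 ratio of the set was 0.02, with quartiles at -0.27 and 0.20, and that of all genes lay at 0. Against a ratio of 0, 56 of the 80 passed, 28 above and 28 below, or 70.0% against 73.7% of all genes, which were split into 37.0% above and 36.7% below. When the arrays were scaled to the same spread, 2 genes of the set passed the 2-fold test, Traf4 and Tnfrsf19, while 5.26% of all genes did. Without arrays 1 and 4, which hold most of the values at the limit of the scale and most exact 0 values, 3 passed, Traf4, Tnfrsf19 and Tnfaip3, against 5.23% of all genes.

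**Figure D1:**
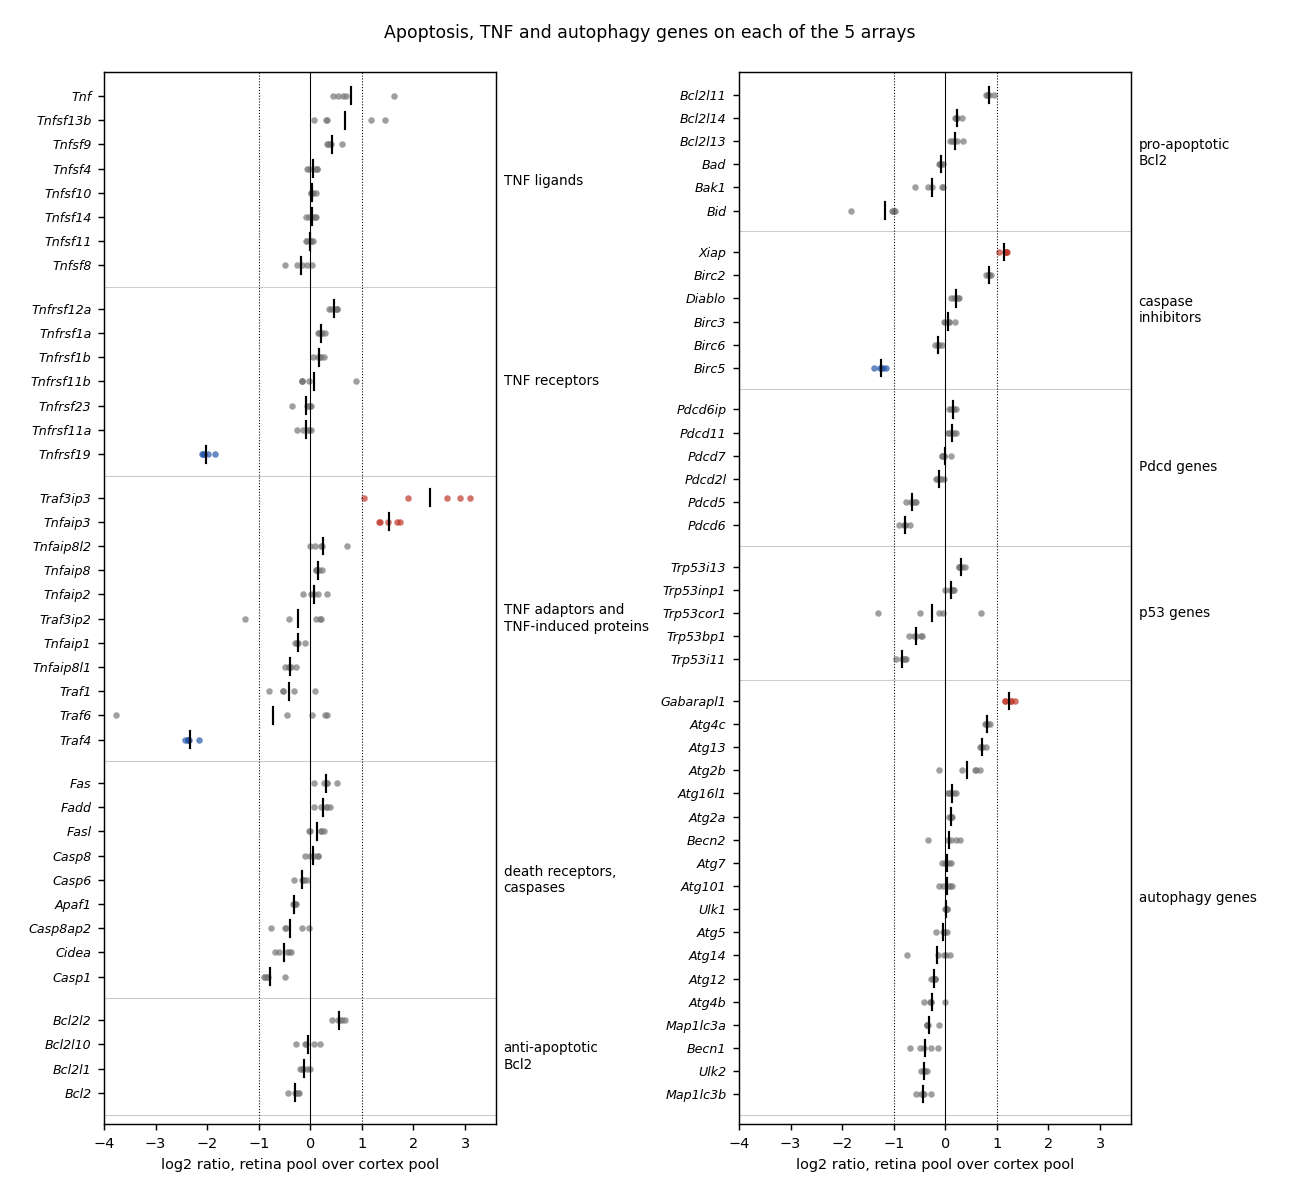
Log2 ratios of all 80 genes, with retina over cortex on the horizontal axis and genes grouped by role on the vertical axis. Each gene has 1 point per array and a black tick at the mean of the 5 arrays. Red marks the 4 genes called higher, blue the 3 called lower and grey the other 73, and dotted lines stand at -1 and 1. Most genes lie close to 0, and Traf6 has 1 point at -3.78, far from its other 4.

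Promoter sequences are shown for 4 of the called genes, because Tnfaip3 is a known target of NF-kappaB and the other 3 are the genes called lower. Each line gives the 250 bases before the first listed start in RefSeq, build GRCm38.p6, read 5′ to 3′ in the direction of transcription, and capitals mark matches to the NF-kappaB consensus on either strand.
Tnfaip3 (chr10:19015411-19015660, minus strand): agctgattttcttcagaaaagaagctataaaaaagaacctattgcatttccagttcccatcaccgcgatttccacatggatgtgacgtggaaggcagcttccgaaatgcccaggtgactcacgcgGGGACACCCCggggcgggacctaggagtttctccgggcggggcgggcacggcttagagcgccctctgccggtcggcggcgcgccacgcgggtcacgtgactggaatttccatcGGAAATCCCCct
Birc5 (chr11:117848987-117849236, plus strand): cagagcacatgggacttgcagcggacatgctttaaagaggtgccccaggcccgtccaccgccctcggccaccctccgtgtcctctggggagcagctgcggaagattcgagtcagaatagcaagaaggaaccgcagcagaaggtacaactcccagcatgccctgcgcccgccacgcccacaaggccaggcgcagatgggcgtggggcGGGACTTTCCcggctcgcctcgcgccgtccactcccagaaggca
Traf4 (chr11:78165551-78165800, minus strand): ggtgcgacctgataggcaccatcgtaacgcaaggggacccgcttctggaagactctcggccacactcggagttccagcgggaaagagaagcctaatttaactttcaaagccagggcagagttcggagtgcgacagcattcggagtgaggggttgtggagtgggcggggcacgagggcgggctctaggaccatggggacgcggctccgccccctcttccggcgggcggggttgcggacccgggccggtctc
Tnfrsf19 (chr14:61046856-61047105, minus strand): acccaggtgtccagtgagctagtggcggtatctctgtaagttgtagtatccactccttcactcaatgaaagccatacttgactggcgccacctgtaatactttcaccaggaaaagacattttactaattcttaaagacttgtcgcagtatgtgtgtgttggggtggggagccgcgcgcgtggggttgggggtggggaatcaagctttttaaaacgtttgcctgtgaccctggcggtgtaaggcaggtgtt
The Tnfaip3 window held 2 matches, GGGACACCCC and GGAAATCCCC, the second of which ends 3 bases before the start. The Birc5 window held GGGACTTTCC, which overlaps a GGGCGG by 2 bases, and the other windows held none. RefSeq listed a second start for Tnfaip3 and for Tnfrsf19, which is not shown. A match to the consensus stood in 6 of the 67 genes of the set with a promoter entry, or 8.96%, against 8.67% of the 7126 measured genes with one, so the set did not stand apart in this respect. The GC box GGGCGG, searched on both strands, stood in 59.7% of the set and 59.6% of those measured genes. For TATAAA the shares were 10.4% and 6.53%, for CCAAT 25.4% and 36.0%, for TTTGAA 10.4% and 10.6%, and for the p53 half-site consensus 4.48% and 5.98%. These matches describe letters and show no binding.

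The TNF ligands gave no called gene among 8, beside 6.63% of all genes. In the test against 0, 3 ligands were above and 0 below, beside 37.0% and 36.7% of all genes. Tnf, the founding inflammatory cytokine of the family, read 0.44, 1.63, 0.64, 0.69 and 0.54 on arrays 1 to 5. Array 2 stood apart, and the other 4 arrays averaged 0.58. Tnfsf13b, the B cell survival factor BAFF, read 1.17, 0.07, 1.45, 0.33 and 0.30, so that arrays 1 and 3 were high and the rest low. Its mean was 0.67 ± 0.61 and the SD was nearly as large as the ratio. Tnfsf9, a ligand that costimulates T cells, was steadier at 0.42 ± 0.12. The death ligand Tnfsf10, known as TRAIL, stood at 0.04 ± 0.04 and the osteoclast factor Tnfsf11 at -0.01 ± 0.06. The other ligands, Tnfsf4, Tnfsf14 and Tnfsf8, had means between -0.19 and 0.05 and did not pass against 0.

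Of 7 TNF receptors, 1 was lower in retina and none was higher, beside 3.83% and 2.80% of all genes. Tnfrsf19, or TROY, is a receptor without a death domain that is known from neural progenitors and the embryonic nervous system. It read -2.11, -1.85, -1.99, -2.06 and -2.08 on arrays 1 to 5. All 5 arrays were close to 4-fold, at -2.02 ± 0.10 or 4.05-fold lower, with an adjusted p of 7.69e-06 in limma's 2-fold test. Next from 0 was Tnfrsf12a, the receptor of the cytokine TWEAK, which read 0.40, 0.52, 0.36, 0.49 and 0.51, with no overlap of 0 and no array past 2-fold. The receptors of TNF itself lay near 0, Tnfrsf1a at 0.20 ± 0.05 and Tnfrsf1b at 0.17 ± 0.08. The osteoprotegerin gene Tnfrsf11b, a decoy receptor, was at 0.89 on array 4, while its other arrays lay from -0.17 to -0.02. The remaining receptors, Tnfrsf23 (-0.09 ± 0.15) and Tnfrsf11a (-0.09 ± 0.11), did not pass against 0.

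Of 11 genes grouped by symbols that begin with Traf or Tnfaip, 2 were higher and 1 lower, beside 2.80% and 3.83% of all genes. Traf4, a TRAF family adaptor known from the developing nervous system, was the lowest gene of the set. It read -2.37, -2.15, -2.37, -2.36 and -2.43 on arrays 1 to 5, or 5.05-fold lower in retina on average, with an adjusted p of 2.50e-06 in limma's 2-fold test. Array 2 was the mildest of the 5 and the other 4 averaged -2.38. Both Traf4 and Tnfrsf19 passed in 13 of the 14 alternatives run for single genes. They failed where the deposited values were read as log2, which makes each ratio smaller.

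Tnfaip3 encodes A20, an enzyme that edits ubiquitin chains and restrains NF-kappaB signalling. It read 1.67, 1.35, 1.75, 1.34 and 1.51, so every array was above 2-fold, and the mean of 1.52 ± 0.18 is 2.88-fold higher in retina and limma's adjusted p was 0.00261. After scaling of the arrays to the same spread the value was 1.55 and the adjusted p 0.0647, the highest over the alternatives other than the reading as log2, with 0.00259 the lowest. Traf3ip3, a membrane protein that binds the adaptor TRAF3, had the highest mean of the set at 2.32 ± 0.85, or 4.99-fold. Its arrays read 2.90, 1.04, 3.11, 1.90 and 2.66, with array 2 the lowest and array 3 the highest. The adjusted p of 0.0401 from limma was lost without any one of arrays 1, 3, 4 and 5, where it lay between 0.0906 and 0.163. Over the alternatives it ran from 0.00354 to 0.350, leaving aside the reading of the values as log2.

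Several other genes of this group were unsteady between arrays. Traf6, a ubiquitin ligase of the Toll-like and interleukin-1 receptor pathways, read -0.44, 0.03, 0.29, 0.32 and -3.78. The last array alone set its mean of -0.72 ± 1.74, and the other 4 averaged 0.05. Traf3ip2, an adaptor of the interleukin-17 receptor, read 0.20, -0.40, -1.26, 0.12 and 0.19. The spread came from 1 of its 2 probes, which ranged from -2.69 to 0.24, while the second probe read 0.21 ± 0.06. Traf1 stood at -0.42 ± 0.33, with array 3 on the other side of 0. The 3 probes of Tnfaip2 differed in sign, at -0.64 ± 0.50, 0.20 ± 0.06 and 0.68 ± 0.30, and their mean was 0.08 ± 0.17. Tnfaip1, Tnfaip8, Tnfaip8l1 and Tnfaip8l2 had means between -0.39 and 0.24. The first 3 of these were steady, with SDs of 0.07, 0.05 and 0.08, and Tnfaip8l2 had an SD of 0.28.

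**Figure D2:**
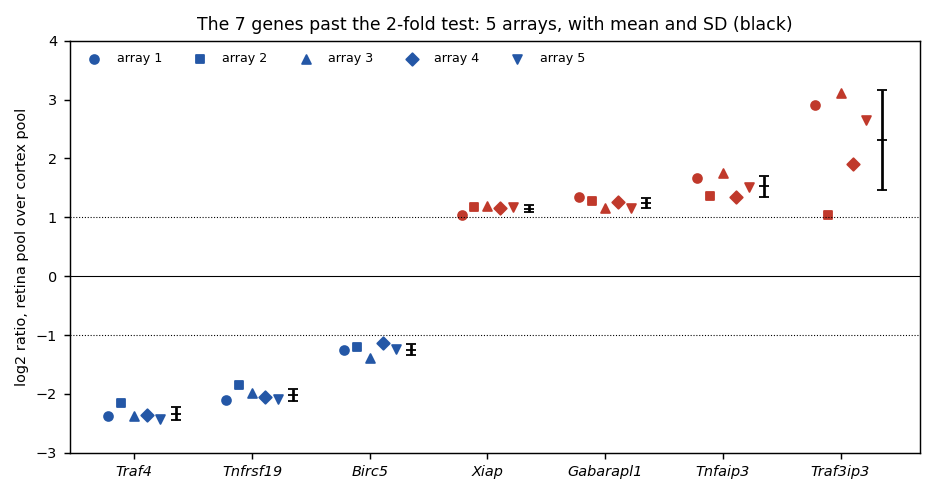
Log2 ratio of the 7 genes past the 2-fold test on the vertical axis, by gene. Each symbol is 1 array, blue for genes lower and red for genes higher in retina, and the black bar beside them is the mean with its SD over 5 arrays. The 3 lower genes form narrow groups, while the arrays of Traf3ip3 run from 1.04 to 3.11.

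The microglia and immune cell markers that were measured, 8 of 19 listed, lay within 2-fold between the pools. Of these 8, 0 passed limma's 2-fold test, also with no adjustment. In the test against 0, 2 markers were above and 2 below, beside 37.0% and 36.7% of all genes. The log2 ratios of the 8 ran from -0.52, for C1qc, to 0.18 with a median of -0.04. These stand beside Tnfaip3 and Traf3ip3 above, and beside Casp1 below, all of which immune cells can express. In contrast, 9 of 10 immature neuron markers were lower in retina, with a median of -2.79 and a range from -3.99 to -0.88, and all 4 measured photoreceptor markers were higher, from 2.97 to 4.30. These lists check the tissue labels under the likely direction. Their part in the ratios of Traf4 and Tnfrsf19 was not tested. The part of immune cells in the ratios of Tnfaip3, Traf3ip3 and Casp1 was not tested either.

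Death receptors, caspases and the apoptosome gave no call among 9 genes. The inflammatory caspase gene Casp1 was farthest from 0, at -0.90, -0.82, -0.84, -0.88 and -0.50. All arrays were below 0, and array 5 was the closest to it. Cidea, a lipid droplet protein related to apoptotic nuclease factors, read -0.38, -0.41, -0.46, -0.61 and -0.69, again on 1 side of 0. The death receptor Fas stood at 0.30 ± 0.16, its adaptor Fadd at 0.25 ± 0.12 and its ligand Fasl at 0.13 ± 0.14. The initiator Casp8 stood at 0.05 ± 0.11 and the effector Casp6 at -0.16 ± 0.10. Apaf1, the scaffold of the apoptosome, averaged -0.31 ± 0.02 over probes that disagreed in size, at -0.83 ± 0.06, -0.10 ± 0.06 and 0.00 ± 0.02. Casp8ap2, which is needed for histone RNA processing, stood at -0.39 ± 0.29. The initiator Casp9 and the effector Bax were not analysed here.

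In the Bcl2 family 0 of 10 genes passed limma's 2-fold test, neither among the 4 anti-apoptotic nor among the 6 pro-apoptotic ones. Of the protective genes, Bcl2l2, or Bcl-w, was farthest from 0 at 0.54, 0.62, 0.42, 0.66 and 0.58, on the retina side on every array. Bcl2 itself read -0.21, -0.29, -0.24, -0.28 and -0.44, on the cortex side. Bcl2l1, the gene of Bcl-x, stood at -0.11 ± 0.08 and Bcl2l10 at -0.04 ± 0.18. Of the genes that promote death, Bid, which links caspase-8 to mitochondria, read -1.01 on array 1 and -1.83 on array 2, and the other 3 arrays lay between -1.04 and -0.98. Its mean was -1.17 ± 0.37, on the cortex side, but it did not pass limma's 2-fold test, with an adjusted p of 1. Array 2 stood apart, and the other 4 arrays averaged -1.01. Bcl2l11, the neuronal death activator Bim, stood on the retina side at 0.82, 0.85, 0.81, 0.93 and 0.79, below 2-fold on every array. Bak1, which permeabilises mitochondria, stood at -0.26 ± 0.22. The 2 probes of Bad differed in sign, at -0.45 ± 0.05 and 0.27 ± 0.07, and Bcl2l13 and Bcl2l14 stood at 0.19 ± 0.10 and 0.23 ± 0.05.

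Of the inhibitors of apoptosis and their antagonist Diablo, 6 genes, 1 was higher and 1 lower, beside 2.80% and 3.83% of all genes. Birc5, or survivin, which acts in chromosome segregation of dividing cells and also blocks cell death, read -1.26, -1.21, -1.38, -1.14 and -1.24. All arrays were below -1, at -1.25 ± 0.09 or 2.37-fold lower, and limma's adjusted p was 0.00562. Xiap, which binds and blocks caspases directly, read 1.04, 1.17, 1.19, 1.16 and 1.17, at 1.15 ± 0.06 or 2.21-fold higher for which limma gave an adjusted p of 0.0228. Its 2 probes lay apart on the retina side, at 1.80 ± 0.09 and 0.49 ± 0.08, and the lower probe taken alone lost the call. The call of Xiap was also lost without any one of arrays 2, 3, 4 and 5, with an adjusted p between 0.0781 and 0.101. After scaling of the arrays neither gene passed, with an adjusted p of 0.219 for Birc5 and 0.290 for Xiap. Leaving aside the reading as log2, the adjusted p ran from 0.00563 to 0.219 over the alternatives for Birc5 and from 0.00970 to 1 for Xiap.

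The other inhibitors and Diablo did not pass the 2-fold test. Birc2, a ubiquitin ligase of the TNF receptor complex, read 0.82, 0.79, 0.85, 0.84 and 0.89, while its close relative Birc3 stood at 0.06 ± 0.08. Birc6, a giant ubiquitin ligase with 4 probes, stood at -0.13 ± 0.05. Diablo, which antagonises these inhibitors when released from mitochondria, stood at 0.20 ± 0.06. Beside Birc5, 2 of 21 markers of dividing cells were lower and 0 higher in retina, against 3.83% and 2.80% of all genes. In the test against 0, 14 of these markers were below and 2 above, against 36.7% and 37.0% of all genes. The median of the markers was -0.34, with a range from -1.82 to 0.83, and their part in the ratio of Birc5 was not tested.

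The Pdcd genes share a name for their finding in dying cells and have varied functions, and 0 of 6 passed limma's 2-fold test. Pdcd6, a calcium sensor, read -0.89, -0.79, -0.78, -0.80 and -0.68, and Pdcd5 read -0.67, -0.59, -0.62, -0.56 and -0.76. Both were on the cortex side on every array. The partner of the calcium sensor, Pdcd6ip or ALIX, a protein of membrane scission, had probes at -0.28 ± 0.08 and 0.56 ± 0.03, which differed in sign. Pdcd11, a ribosome assembly factor, stood at 0.13 ± 0.06, Pdcd2l at -0.11 ± 0.06 and the spliceosome protein Pdcd7 at -0.01 ± 0.07.

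**Figure D3:**
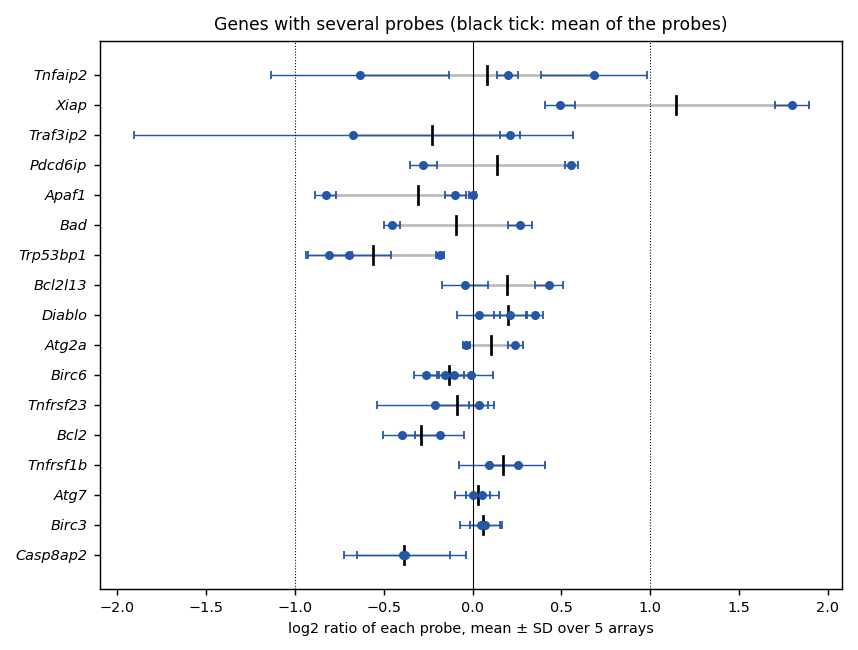
Genes of the set with several probes on all arrays, 17 in number, with the log2 ratio on the horizontal axis. Each point is 1 probe with its SD over 5 arrays, and the black tick is the mean of the probes used as the gene's value. The probes of 8 genes lie on both sides of 0, and those of Xiap lie 1.30 apart on the same side.

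Genes named for p53, the transcription factor that answers DNA damage, gave 0 calls among 5 by limma's 2-fold test. Trp53i11 read -0.85, -0.78, -0.96, -0.77 and -0.80, on the cortex side throughout. Trp53bp1, a protein of DNA break repair, read -0.45, -0.70, -0.61, -0.57 and -0.48 as the mean of 3 probes, which ran from -0.81 to -0.18. Trp53i13 stood at 0.30 ± 0.04 and Trp53inp1 at 0.11 ± 0.07. The noncoding RNA gene Trp53cor1 read 0.69, -0.05, -0.13, -0.50 and -1.30, with no direction. Trp53 itself was not analysed here.

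Of 18 autophagy genes 1 was higher in retina and none was lower, beside 2.80% and 3.83% of all genes. Gabarapl1, a membrane-bound tag of autophagosomes of the GABARAP family, read 1.35, 1.28, 1.15, 1.26 and 1.15. Every array was above 2-fold, at 1.24 ± 0.09 or 2.36-fold higher, and limma's adjusted p was 0.00588. The related LC3 genes lay on the other side of 0, Map1lc3a at -0.31 ± 0.10 and Map1lc3b at -0.43 ± 0.10, both below 2-fold. Scaling of the arrays gave Gabarapl1 an adjusted p of 0.0663 at a value of 1.25, and over the alternatives other than the reading as log2 it ran from 0.00471 to 0.111.

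The rest of the autophagy machinery lay within 2-fold, in the order in which it acts. In the initiating kinase complex, Atg13 stood at 0.71 ± 0.05, Atg101 at 0.02 ± 0.11, Ulk1 at 0.02 ± 0.02 and Ulk2 at -0.41 ± 0.04. A second Ulk1 probe had no value on array 4 and read -0.66 ± 0.44 on the other 4 arrays. In the lipid kinase complex, Becn1 stood at -0.40 ± 0.21 and Atg14 at -0.16 ± 0.34, with array 2 at -0.75, while the Becn1 relative Becn2 stood at 0.06 ± 0.24. The lipid transfer genes Atg2a and Atg2b stood at 0.10 ± 0.02 and 0.41 ± 0.32. The conjugation genes were close to 0, with Atg5 at -0.04 ± 0.08, Atg7 at 0.03 ± 0.07, Atg12 at -0.22 ± 0.03 and Atg16l1 at 0.12 ± 0.06. Of the proteases that process LC3 and GABARAP proteins, Atg4c read 0.87, 0.82, 0.76, 0.80 and 0.83, on the retina side, and Atg4b stood at -0.25 ± 0.15.

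**Figure D4:**
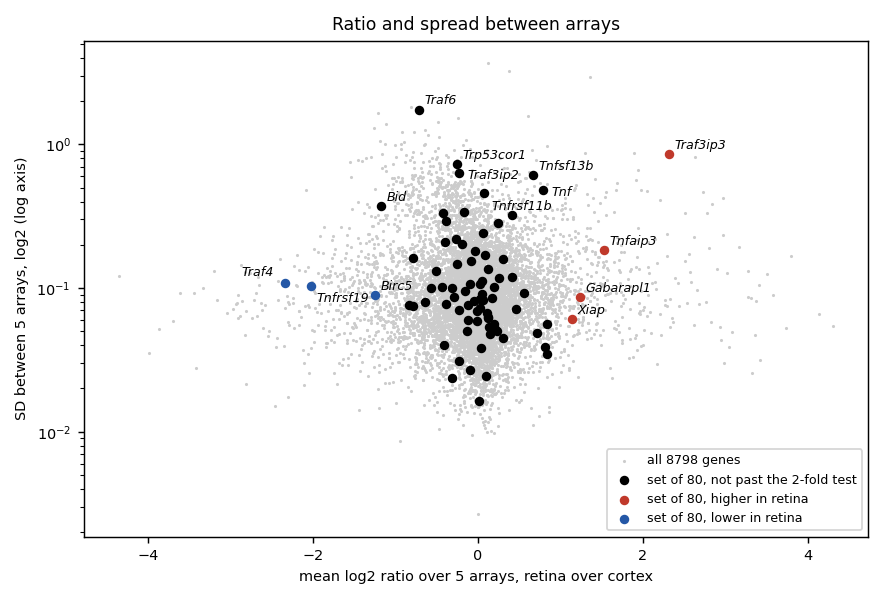
Mean log2 ratio over 5 arrays on the horizontal axis against the SD between arrays on a log axis, with 1 point per gene. Grey points are all 8798 genes and larger points the 80 genes, black where not past the 2-fold test, red where higher and blue where lower in retina. The 2 lowest genes of the set have SDs near 0.10, and Traf3ip3 and Traf6 have SDs of 0.85 and 1.74.

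The arrays repeated the set nearly as closely as they repeated other genes at the middle of the distribution. The median SD between arrays was 0.090 for the set and 0.085 for all genes. All 5 arrays shared a sign in 55 of the 80 genes, or 68.8%, against 73.5% of all genes. An SD above 0.354, the 95th percentile of all genes, was found in 8 genes of the set: Traf6, Traf3ip3, Trp53cor1, Traf3ip2, Tnfsf13b, Tnf, Tnfrsf11b and Bid. Of these 8, 6 belong to the TNF ligands, the TNF receptors and the Traf and Tnfaip genes, which make up 26 of the 80. Traf3ip3 was the only one of the 8 that was called. Across the 80 genes Pearson's r between arrays ran from 0.719 to 0.933 over the 10 pairs, against 0.878 to 0.956 across all genes. The pairs with array 5 gave the lowest r across the set, 0.719 to 0.803, and the other pairs 0.831 to 0.933. Traf6 read -3.78 on array 5, and the part of that value in r was not tested. The points are genes on the same arrays and not independent, so no p is given.

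Pathway genes outside the symbol rule gave 5 calls among 110. Of 27 other measured apoptosis genes, 1 was lower, the Bcl2 family effector Bok, which read -2.20 ± 0.10, and none was higher. Of 35 other autophagy genes, 3 were higher and none lower, and the list median was 0.20. In the test against 0, 22 of this list were above and 8 below, beside 37.0% and 36.7% of all genes. The farthest from 0 were Prkab1, a subunit of the energy sensor AMPK, at 1.84 ± 0.04, and Ddit4, an inhibitor of the growth kinase mTOR, at 1.44 ± 0.06. Of 25 other TNF and NF-kappaB genes, 1 was lower, the NF-kappaB inhibitor Nfkbib at -1.34 ± 0.04, and none was higher. Of 23 regulators and targets of p53, 0 passed limma's 2-fold test, also with no adjustment. The shares past the test in these 4 lists ran from 0 to 8.57%, beside 6.63% of all genes.

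**Figure D5:**
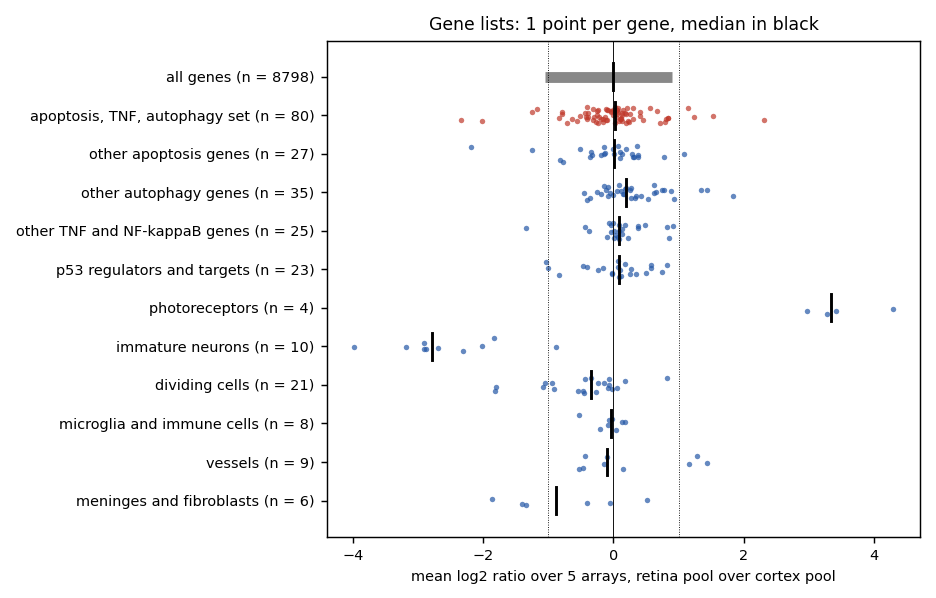
Mean log2 ratio over 5 arrays on the horizontal axis for the set of 80 genes, for pathway genes outside the symbol rule and for cell type markers, with 1 point per gene and the median as a black tick. The grey bar runs from the 5th to the 95th percentile of all genes, -1.05 to 0.90. The medians of the pathway lists run from 0.01 to 0.20, the latter for other autophagy genes. Photoreceptor and immature neuron markers lie on opposite sides of 0.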

How the data were processed

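Log ratios of retina (Cy5) over cortex (Cy3) RNA were read from the table of values that the authors deposited, with 1 column for each of 5 arrays. The deposited values were taken as log10 ratios, because they end exactly at 2 and -2; how the authors corrected background, normalised dyes and filtered spots is not given in the sources used. No spot intensities entered, so precision rests on the number of arrays alone. Multiplication by 3.32 gave log2 ratios, and an exact 0 was read as no value. Probes with 1 symbol in the platform annotation numbered 11813, and 559 had several and named no gene. Of the former, 11782 were matched by gene identifier to RefSeq genes of GRCm38.p6. A gene's value was the mean of its probes, where these had values on every array.

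All 8798 genes were fitted together in limma (version 3.58.1, R version 4.3.3) as an intercept over the arrays, tested against 0 (eBayes) and against a minimum of 2-fold (treat), two-sided, with Benjamini-Hochberg adjustment. For this comparison the fit was tested on simulated data of 8798 genes, where it found 89.1% of log2 changes of 1.5, 91.4% of those of 2 and 100% of those of 3. The simulated noise was normal with each gene's own SD, and unchanged genes had a ratio of 0. Changes smaller than 1.5, the size range of Xiap, Gabarapl1 and Birc5, were not simulated, so these shares do not cover them. The genes, lists and tests were chosen with earlier results of these data known. Every gene of the set may be named; array values are given for those past the 2-fold test and, in each role, for the 2 farthest from 0. Of the other pathway lists, the 2 farthest from 0 that passed are named. Further array values, and the genes whose promoters are shown, were chosen after values were seen. Alternatives covered centring, scaling, missing values, exact 0 values, the probe rule, the prior, array weights, the log base, the minimum fold, the symbol source and arrays left out. The remaining marker lists, vessels and meninges with fibroblasts, served only as checks. Of 9 vessel genes 3 were higher and 0 lower. Their median was -0.10, however, and 5 lay below 0 in the test against 0. Of 6 genes of meninges and fibroblasts 3 were lower and 0 higher, with a range from -1.86 to 0.52. Over all genes 2.80% were higher and 3.83% lower.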

Additional observations from a re-analysis of the deposited data

Results flagged for a closer look

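An array far from the other 4 was found in 12 of the 80 genes, or 15.0%, against 8.01% of all genes, where chance gives about 1 in 20. The array apart was array 2 in 5 genes, array 5 in 5, and array 1 and array 4 in 1 each. On array 2, Bid read -1.83 and between -1.04 and -0.98 elsewhere, Tnf read 1.63 and between 0.44 and 0.69 elsewhere, and Atg14 read -0.75 and between -0.14 and 0.08 elsewhere. On the same array Tnfrsf23 read -0.36, with -0.06 to 0.01 elsewhere, and Traf4 -2.15, with -2.43 to -2.36 elsewhere. On array 5, Traf6 read -3.78, with -0.44 to 0.32 elsewhere, Casp1 -0.50, with -0.90 to -0.82 elsewhere, and Map1lc3a -0.13, with -0.36 to -0.34 elsewhere. There Tnfaip1 read -0.11, with -0.29 to -0.24 elsewhere, and Pdcd7 0.11, with -0.07 to -0.02 elsewhere. Tnfrsf11b read 0.89 on array 4, and Xiap 1.04 on array 1, with 1.16 to 1.19 elsewhere. The sign of the array mean without the array apart differed from that with it in Traf6 and in Tnfrsf11b.

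Probes annotated with several symbols, of which 1 fits the rule, entered no comparison. There were 8 of them, with means from -0.88 to 1.73, and 1 passed the limma 2-fold test, at 1.73. The gene behind it was not identified here.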

How the results depend on the processing

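No paired analysis was possible because the 5 arrays form 1 group. The count of genes past the 2-fold test was 2 after scaling, 0 with the values read as log2, 14 with a minimum of 1.5-fold and 3 without arrays 1 and 4, in place of 7. The background share of all genes moved with it, to 5.26%, 0.0796%, 16.0% and 5.23%. With each array left out in turn, 5 to 6 genes passed the 2-fold test and 51 to 56 the test against 0, and the median SD was 0.082 to 0.096. Beside those 4 counts, 34 values of the counts and of the SD, the left-out arrays included, moved by less than 1.5 times (counts) or by less than the SD over genes (spread). With the median probe 3 signs reversed: Atg2a stood at -0.036, Bcl2l13 at -0.043 and Pdcd6ip at -0.28, none past the 2-fold test. For a gene with 2 probes this setting took the lower probe, as it did for these 3 genes. Of the other values of named genes, 1144 kept their outcome in the 2-fold test, passed or not, and 29 no longer passed it at an adjusted p of 0.05 while keeping their direction. The fit without arrays 1 and 4 was added after the data were seen; it left Birc5 at an adjusted p of 0.0540. Spot intensities were not used here, so the weight of dim spots is unknown. The cause of these moves was not tested, except that a smaller minimum fold and a smaller log base change the count past the 2-fold test by construction. The sign reversals likewise follow from taking the lower probe.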
